A study of Mus musculus with 21 samples.

Results

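The genes described here are 10 members of the p53 and ARF pathway: Trp53, Mdm2, Mdm4, Cdkn2a, Cdkn1a, Ccng1, Sesn2, Trp53inp1, Phlda3 and Eda2r. They were chosen by symbol, with no threshold on a measured value, from the 24421 genes of the deposited tables. All 10 were found once in each table and all passed the filter on low counts. The study asked where DNA damage arises when B cell precursors are transformed by a leukemia oncogene, and messenger RNA was sequenced to set that damage beside transcription. Poly(A) RNA was measured in 6 libraries, 2 for each of 3 conditions.

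The cells of all 3 conditions were bone marrow B cell precursors of 53BP1-/- C57BL/6 mice, taken into culture, so the loss of 53BP1, a DNA repair factor that also binds p53, is shared by the controls. They were grown with 10 ng/ml of interleukin-7 and transduced by centrifugation with virus on days 2 and 3 of culture. The retroviral vector was MIGR1 without an insert (EV), MIGR1 with human BCR-ABL1p210, the fusion kinase of Philadelphia chromosome-positive leukemia, or MIGR1 with mouse C-MYC, a transcription factor that drives cell growth. Cells for RNA were harvested 7 to 9 days after transduction, and the study's methods remove dead and apoptotic cells first. The study's methods describe the 2 RNA extractions of a condition as duplicate experiments. No source used here says whether these used separate animals, so the p-values measure the spread between these samples. The cultures are bulk samples, in which fewer cells of a type and less RNA per cell cannot be told apart.

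The transcription factor p53, encoded by Trp53, is made continuously and destroyed through the ubiquitin ligase Mdm2, with Mdm4 as a partner that blocks its activity. DNA damage stabilizes p53 through kinases that modify the protein, and oncogenes such as C-MYC can stabilize it through ARF, a product of Cdkn2a that binds Mdm2. Stabilized p53 then activates genes of cell cycle arrest, repair and cell death, and it activates Mdm2, which closes a feedback loop. In B cell precursors driven by C-MYC or BCR-ABL1, loss of ARF or p53 is a known step in leukemia of mice. RNA levels do not measure the stability or modification of the p53 protein. The study looked at phosphorylated p53 by western blot in transformed and control cultures, and reported signs of DNA damage in early-transformed cells. Those blots were not used here.

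Letters that match the p53 half-site consensus were looked for in the promoters of the members, because p53 binds DNA through pairs of this half-site. The E-box CACGTG, which the C-MYC and MAX pair binds, was looked for in the same windows. A RefSeq promoter of GRCm38.p6, from 250 bases before to 50 bases after a start site, was found for 9 of the 10 members and covers 12 start sites. Half-sites lay in 4 of these 12 promoters, or 33.3%, and in 8.36% of all 32851 promoters. They lay in 6.64% of the promoters of genes that passed the filter on low counts. The consensus is 10 letters long and reads the same on both strands. The matches are shown 5′ to 3′ on the strand of the gene, with 10 bases on each side and the matched letters in capitals:
Mdm2, chr10:117710925-117710954, minus strand: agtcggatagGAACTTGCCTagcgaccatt
Ccng1, chr11:40755452-40755481, minus strand: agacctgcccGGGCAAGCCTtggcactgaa
Trp53, chr11:69580274-69580303, plus strand: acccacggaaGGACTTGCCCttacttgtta
Cdkn1a, chr17:29090896-29090925, plus strand: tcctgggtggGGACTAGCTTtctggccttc
Cdkn1a, chr17:29090918-29090947, plus strand: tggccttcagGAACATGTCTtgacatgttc

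The matches of Mdm2 and Ccng1 began 186 and 185 bases before the start site, and that of Trp53 75 bases before it. Those of Cdkn1a began 73 and 51 bases before its start site at 29090979. The promoter of its other start site, at 29093769, held none. The E-box was found in the promoters of Trp53 and Eda2r, which is 2 of 12 or 16.7%. It lay in 7.15% of all promoters and in 9.87% of those of genes that passed the filter on low counts. It does not overlap the half-site of Trp53. Both matches lie after the start site, and they are shown because C-MYC was one of the 2 oncogenes. The Eda2r match ends at the edge of the promoter window, so no bases follow it:
Trp53, chr11:69580359-69580384, plus strand: tttcccctccCACGTGctcaccctgg
Eda2r, chrX:97377160-97377175, minus strand: gttgttgctaCACGTG

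Cdkn2a has 2 start sites that lie 12427 bases apart, and neither promoter held a half-site or an E-box. Each is shown by the 30 bases just before it, since transcripts from the distal start encode ARF and those from the proximal start encode the kinase inhibitor INK4a:
Cdkn2a distal start, chr4:89294620-89294649, minus strand: agcaaagatgggccgggggcggcgcgtggg
Cdkn2a proximal start, chr4:89282193-89282222, minus strand: accatcctcagaggaaggaaggagggaccc

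A match is a description of letters and not of a bound site, and p53 sites outside these windows were not searched. Promoters were found for 27 of the 35 other p53 target genes described further on. Of their 38 promoters, 11, belonging to 10 genes, held a half-site, or 28.9%, and 6, or 15.8%, held an E-box.

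The libraries held between 20687092 and 24095955 counts. The values given are CPM, read counts relative to library size after TMM normalization, which scales each library by the bulk of its genes. Differences were tested with edgeR's quasi-likelihood test over 12786 genes, with Benjamini-Hochberg adjustment, and called at an adjusted p below 0.05. The 3 comparisons share libraries in pairs and are not independent of each other. Myc, the gene carried by the C-MYC vector, had 180.9 and 137 CPM in EV, 343.2 and 348.2 CPM in BCR-ABL1, and 1743 and 1233 CPM in C-MYC, so its level fits the C-MYC labels. Abl1 and Bcr, the mouse counterparts of the parts of the fusion, were not called in BCR-ABL1 against EV. Their log2 fold changes were 0.24 and 0.27 (adjusted p = 0.168 and 0.277 in edgeR's quasi-likelihood test), so they do not show the BCR-ABL1 labels. B cell precursor markers summed to between 5735 and 9493 CPM in every library, with none of the 13 at 0.

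Trp53 lies on chromosome 11 from 69580359 to 69591873 on the plus strand. Its level was 203.5 and 245.3 CPM in EV, 264.1 and 269 CPM in BCR-ABL1, and 350.5 and 284 CPM in C-MYC. The conditions were ordered EV, BCR-ABL1 and C-MYC without overlap between any pair of them. Trp53 was 1.41-fold higher in C-MYC than in EV (log2 fold change 0.50, standard error 0.14, adjusted p = 0.0211 in edgeR's quasi-likelihood test). Neither step to or from BCR-ABL1 passed the test, with log2 fold changes of 0.25 against EV (adjusted p = 0.265) and 0.25 for C-MYC against BCR-ABL1 (adjusted p = 0.223), both with a standard error of 0.14. The call between C-MYC and EV was lost without EV replicate 1 (adjusted p = 0.0644), without C-MYC replicate 1 (adjusted p = 0.13) and on the scale of log2 FPKM (adjusted p = 0.0823 with a pseudocount of 1). Trp53 and Mdm4 each have an annotated processed pseudogene that is no row of the tables, and how reads shared with it were counted is not given in the sources used here.

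The inhibitors of p53 did not pass the test in any comparison. Mdm2, the ubiquitin ligase and itself a p53 target, lies on chromosome 10 from 117688875 to 117710758. It had 107.4 and 102.2 CPM in EV, 120.9 and 113.2 CPM in BCR-ABL1, and 95.29 and 100.4 CPM in C-MYC. Its values did not overlap between conditions, but the differences were small, with a log2 fold change of -0.26 between C-MYC and BCR-ABL1 (standard error 0.11, adjusted p = 0.116) as the largest of the 3. Against EV, its log2 fold changes were 0.16 in BCR-ABL1 (standard error 0.11, adjusted p = 0.35) and -0.10 in C-MYC (standard error 0.11, adjusted p = 0.482).

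Mdm4, the second inhibitor, lies on chromosome 1 from 132959484 to 133030561. Its level was 141.3 and 200 CPM in EV, 147.3 and 157.5 CPM in BCR-ABL1, and 137.8 and 158.9 CPM in C-MYC. The values of all 3 conditions overlapped, and EV replicate 2 was the highest. Its log2 fold changes were -0.16 in BCR-ABL1 and -0.20 in C-MYC against EV, and -0.04 between the oncogenes, each with a standard error of 0.17 and with adjusted p of 0.564, 0.367 and 0.892. The deposited FPKM values, which the authors scaled for length and depth, gave another picture of the same libraries. EV replicate 2 had the most counts of Mdm4, 4785, and the lowest FPKM, 22.7, while the other libraries had between 2997 and 3790 counts and FPKM between 68.1 and 82.8. The log2 fold changes of Mdm4 against EV were therefore positive on the FPKM scale, 0.91 in BCR-ABL1 (adjusted p = 0.313) and 0.82 in C-MYC (adjusted p = 0.229) in limma on log2(FPKM + 1). The 2 tables disagree for this gene, and no direction can be given for Mdm4.

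Cdkn2a stood highest in BCR-ABL1 and lowest in C-MYC. The gene lies on chromosome 4 from 89274471 to 89294653 on the minus strand, and its products INK4a, an inhibitor of the kinases CDK4 and CDK6, and ARF, the inhibitor of Mdm2, share exons, so that counts per gene do not separate them. Its level was 47.16 and 37.87 CPM in EV, 60.3 and 59.66 CPM in BCR-ABL1, and 22.71 and 23.17 CPM in C-MYC. Its values did not overlap between conditions, and both C-MYC libraries were below the lower EV library.

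In C-MYC, Cdkn2a fell to 0.540 of its level in EV (log2 fold change -0.89, standard error 0.14, adjusted p = 0.00237). It was 2.61-fold lower in C-MYC than in BCR-ABL1 (log2 fold change -1.39, standard error 0.15, adjusted p = 0.0013). Both calls held in every alternative that was run, with log2 fold changes between -1.04 and -0.72, and between -1.40 and -1.37, when a library was left out. In BCR-ABL1 it was 1.41-fold higher than in EV (log2 fold change 0.50, standard error 0.14), and its adjusted p of 0.0493 lay just under the threshold. This last call was lost in 9 of 14 alternatives, among them the model without EV replicate 2 (adjusted p = 0.0848) and the model of the 4 libraries compared (adjusted p = 0.098), while the log2 fold change stayed positive in each, at 0.35 or more.

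**Figure D1:**
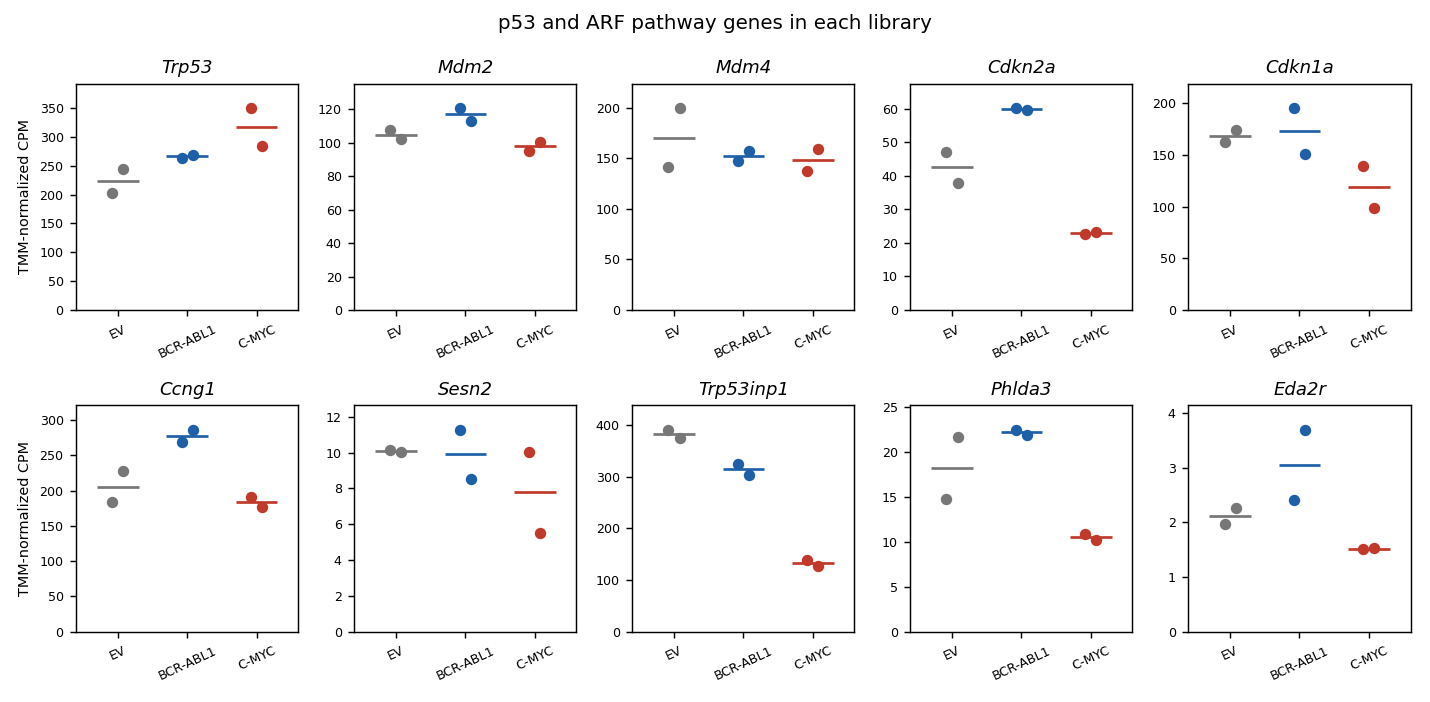
Each panel shows 1 gene, with TMM-normalized CPM on a vertical axis that starts at 0 and the 3 conditions on the horizontal axis. Points are the 2 libraries of a condition and lines are their means. Trp53inp1 and Cdkn2a are among the genes whose C-MYC libraries do not overlap those of either other condition. Mdm4 overlaps in every comparison, and Sesn2 in those with BCR-ABL1.

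Among the members, Trp53inp1 showed the largest difference between C-MYC and EV. It encodes a nuclear protein that promotes p53-dependent cell death and takes part in autophagy, and lies on chromosome 4 from 11156431 to 11174379. It had 390.8 and 374.6 CPM in EV, 325.3 and 303 CPM in BCR-ABL1, and 138.8 and 127.2 CPM in C-MYC. The values were ordered in this way from high to low, without overlap. Trp53inp1 was 2.88-fold lower in C-MYC than in EV (log2 fold change -1.52, standard error 0.10, adjusted p = 0.000175) and 2.36-fold lower than in BCR-ABL1 (log2 fold change -1.24, standard error 0.10, adjusted p = 0.000592). The difference between BCR-ABL1 and EV did not pass the test (log2 fold change -0.28, standard error 0.10, adjusted p = 0.0946), and passed it in limma on log2(FPKM + 1) without a filter (adjusted p = 0.0449).

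Phlda3 encodes a small membrane-binding protein that competes with the kinase AKT for membrane lipids, and lies on chromosome 1 from 135766119 to 135769136. It had 14.72 and 21.69 CPM in EV, 22.47 and 21.9 CPM in BCR-ABL1, and 10.89 and 10.24 CPM in C-MYC. The C-MYC libraries were below all others, and EV replicate 2 lay close to the BCR-ABL1 libraries. Phlda3 was 1.73-fold lower in C-MYC than in EV (log2 fold change -0.79, standard error 0.21, adjusted p = 0.0181) and 2.10-fold lower than in BCR-ABL1 (log2 fold change -1.07, standard error 0.21, adjusted p = 0.0103). Between BCR-ABL1 and EV its log2 fold change was 0.28 (standard error 0.20, adjusted p = 0.39). The call against BCR-ABL1 was lost without any 1 of the 4 libraries compared (adjusted p from 0.0556 to 0.0823), and the call against EV was lost without either C-MYC library (adjusted p = 0.078 and 0.0976), in the model of the 4 libraries (adjusted p = 0.057) and in limma without a filter (adjusted p = 0.0704). Its log2 fold change against EV was -0.48 without EV replicate 2 and -1.03 without EV replicate 1.

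Ccng1 encodes cyclin G1, which recruits a phosphatase that acts on Mdm2, and lies on chromosome 11 from 40748552 to 40755311. It had 183.4 and 228.5 CPM in EV, 269.1 and 286.7 CPM in BCR-ABL1, and 191.8 and 176.3 CPM in C-MYC. The BCR-ABL1 libraries were the highest, and EV and C-MYC overlapped. Ccng1 was 1.51-fold lower in C-MYC than in BCR-ABL1 (log2 fold change -0.59, standard error 0.13, adjusted p = 0.0151), a call that was lost without any 1 of these 4 libraries (adjusted p from 0.0595 to 0.104). Its log2 fold change of 0.43 in BCR-ABL1 against EV missed the threshold (standard error 0.13, adjusted p = 0.0565) and passed it in 5 alternatives, DESeq2 among them (adjusted p = 0.0194). Between C-MYC and EV the log2 fold change was -0.16 (standard error 0.13, adjusted p = 0.34).

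Cdkn1a encodes p21, the inhibitor of cyclin-dependent kinases through which p53 arrests the cell cycle, and lies on chromosome 17 from 29090976 to 29100727. It had 162.5 and 174.3 CPM in EV, 195.4 and 150.9 CPM in BCR-ABL1, and 139.2 and 98.97 CPM in C-MYC. Both C-MYC libraries were below all others, but they differed among themselves. Cdkn1a did not pass the test in C-MYC against EV (log2 fold change -0.50, standard error 0.19, adjusted p = 0.0607) or against BCR-ABL1 (log2 fold change -0.54, standard error 0.19, adjusted p = 0.0715). Without C-MYC replicate 1 both differences passed (adjusted p = 0.0317 and 0.0488), without the filter on low counts both passed too (adjusted p = 0.028 and 0.027), and in limma on log2(FPKM + 1) the first passed too (adjusted p = 0.0347). Between BCR-ABL1 and EV the log2 fold change was 0.04 (standard error 0.18, adjusted p = 0.912). Of the annotated exon bases of Cdkn1a, 273, or 7.68%, are shared with a gene model on the opposite strand, and whether the counting used strand is not given in the sources used here.

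Sesn2 and Eda2r were the lowest of the 10. Sesn2 encodes sestrin 2, a stress protein that restrains mTORC1, and lies on chromosome 4 from 132492032 to 132510501. It had 10.14 and 10.03 CPM in EV, 11.28 and 8.518 CPM in BCR-ABL1, and 10.02 and 5.523 CPM in C-MYC. The spread between the 2 C-MYC libraries exceeded the difference of any condition means, and no comparison passed (adjusted p = 0.962, 0.341 and 0.44 for BCR-ABL1 against EV, C-MYC against EV and C-MYC against BCR-ABL1).

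Eda2r encodes a receptor for ectodysplasin A2 and lies on chromosome X from 97333840 to 97377216. It had 1.963 and 2.257 CPM in EV, 2.418 and 3.698 CPM in BCR-ABL1, and 1.517 and 1.527 CPM in C-MYC, from 42 and 54, 51 and 89, and 33 and 34 counts. Its values did not overlap, with BCR-ABL1 highest and C-MYC lowest. The difference of C-MYC from BCR-ABL1 missed the threshold (log2 fold change -1.01, standard error 0.33, adjusted p = 0.0613) and passed it in the model of the 4 libraries compared (adjusted p = 0.0379). Against EV the log2 fold changes were 0.54 in BCR-ABL1 (standard error 0.32, adjusted p = 0.3) and -0.47 in C-MYC (standard error 0.33, adjusted p = 0.289).

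Counted together, 1 of the 10 members was called between BCR-ABL1 and EV, Cdkn2a, which was higher, against 17% of all genes tested, 5.08% higher and 12% lower. Between C-MYC and EV, Trp53 was higher and Cdkn2a, Trp53inp1 and Phlda3 were lower, or 4 of 10 members against 43.1% of all genes, 18.6% higher and 24.5% lower. Between C-MYC and BCR-ABL1, Cdkn2a, Trp53inp1, Phlda3 and Ccng1 were lower and none was higher, or 4 of 10 members against 23.4% of all genes, of which 11.9% were called lower and 11.5% higher. The share of members called was thus close to the background in C-MYC against EV. The members' median log2 fold changes were 0.20, -0.42 and -0.57 in these comparisons, while the medians of all genes were 0.001, -0.08 and 0.

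**Figure D2:**
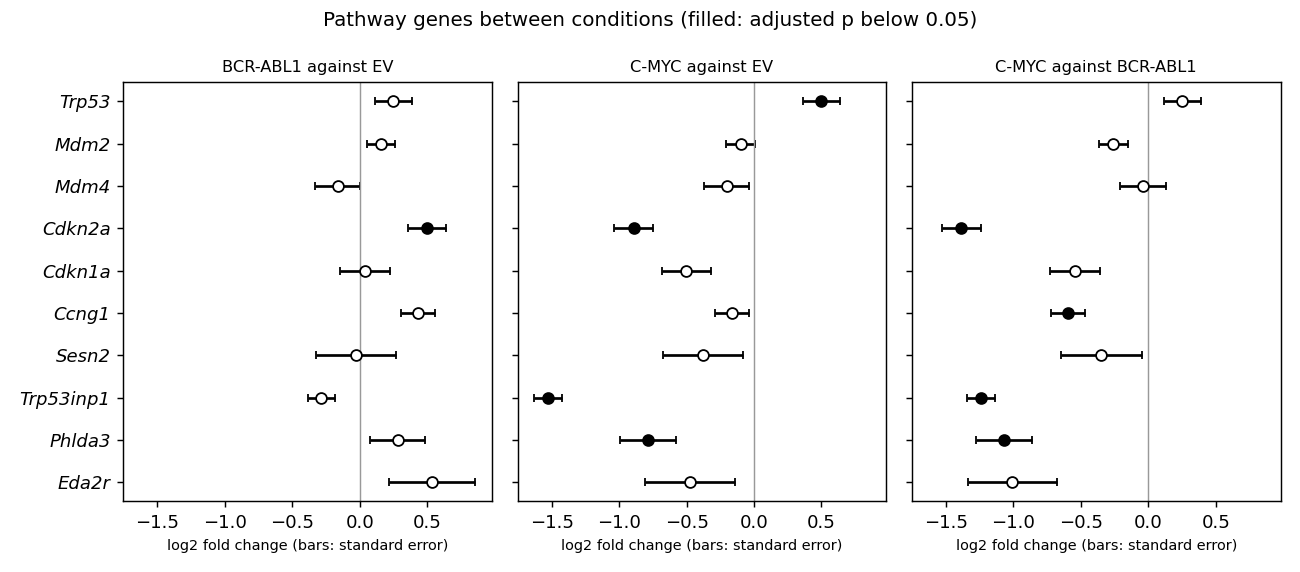
The log2 fold change of each member is plotted on the horizontal axis for the 3 comparisons, with standard errors as bars. Filled points passed edgeR's test after adjustment. Between the oncogenes, 9 of 10 points lie below 0, with Trp53 as the exception, while the median of all genes was 0. Those of Mdm4 and Sesn2 reached 0.060 and 0.018 when a library was left out, so their side of 0 is not settled.

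Compared per length, the members spanned a wide range. On the scale of CPM per kilobase of annotated exon, averaged over conditions, Trp53 had 66.6 and Ccng1 63.4, which stood above 94% and 93.7% of the 12292 tested genes with an annotated length. Cdkn1a had 43.2, Trp53inp1 42.7 and Cdkn2a 35.7 CPM per kilobase. Mdm2 had 21, Phlda3 10.9 and Mdm4 10.6 CPM per kilobase, still above the median gene at 5.87. Sesn2 had 2.66 and Eda2r 0.379 CPM per kilobase, below that median. Trp53inp1 had the highest level of the 10 in EV, 59.1 CPM per kilobase ± 1.77 (SD, n = 2), within the spread of Ccng1 at 58.6 ± 9.07 and of Trp53 at 55.5 ± 7.31. In C-MYC it was at 20.5 ± 1.27 CPM per kilobase, close to Cdkn2a at 19.6 ± 0.28 and Mdm2 at 19.2 ± 0.706. By mean FPKM the order differed, with Trp53inp1 first at 143.4 FPKM and Trp53 behind it at 57.4 FPKM, below Cdkn1a, Mdm4 and Ccng1.

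**Figure D3:**
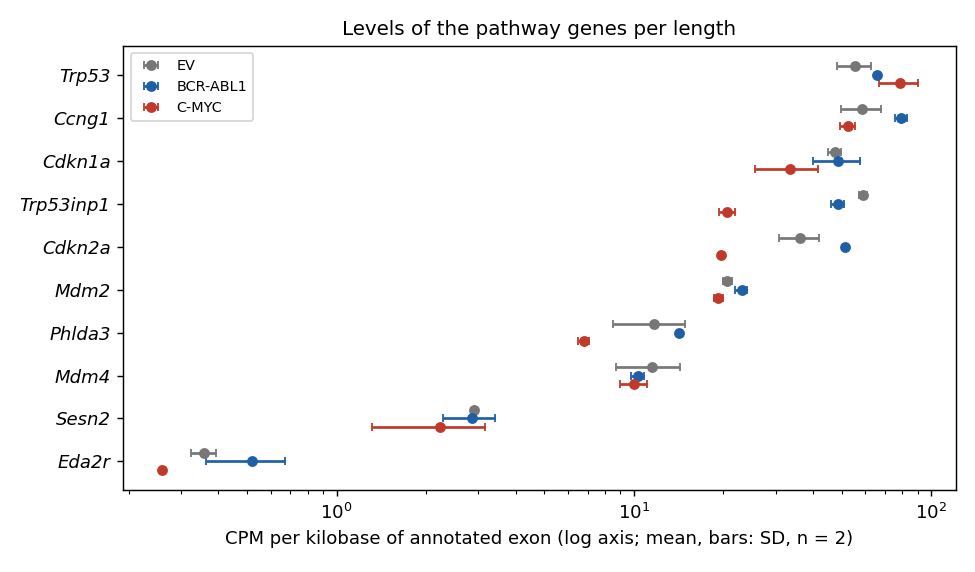
CPM per kilobase of annotated exon is plotted on a log axis for each member, ordered by the mean over conditions, with points for the mean of each condition and bars for the SD of its 2 libraries. Trp53 and Ccng1 lead at 66.6 and 63.4, and Eda2r is lowest at 0.379.

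A further 35 established p53 target genes were counted, all of which passed the filter on low counts. Between BCR-ABL1 and EV, 5 were higher and 4 lower, or 25.7% called against 17% of all genes, of which 5.08% were higher and 12% lower. The 5 higher genes were Zfp365, at a log2 fold change of 1.44 (adjusted p = 0.00673), Zmat3, at 0.93, Polk, at 0.59, Ei24, at 0.41, and Bax, at 0.40, the last 4 named after their values were seen. Bax opens the outer mitochondrial membrane in cell death, Zmat3 is an RNA-binding protein, and Polk is a DNA polymerase that copies past lesions. The 4 lower genes were Plk2, at a log2 fold change of -1.97 (adjusted p = 0.00372), Fas, at -1.93 (adjusted p = 0.0207), Gadd45a, at -0.97 (adjusted p = 0.0179), and Btg2, at -0.80 (adjusted p = 0.0133), the last also named after its value was seen. Fas is a death receptor, Gadd45a a growth arrest gene of the damage response, and Btg2 a brake on proliferation. The list's median log2 fold change was 0.05. The model of the 4 libraries compared called 2 targets higher and 4 lower, beside 402 and 1332 of 12617 genes. Limma without a filter called 1 and 2, beside 277 and 1148 of 17805 genes, and the replicate block called 7 and 7. Fewer targets, and fewer of all genes, were called without either BCR-ABL1 library.

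Between C-MYC and EV, 3 of the 35 targets were higher and 12 lower, or 42.9% called against 43.1% of all genes, and the list's median log2 fold change was -0.18. Fas had 12.39 and 4.974 CPM in EV and 1.011 and 0.8532 CPM in C-MYC, a log2 fold change of -3.21 (adjusted p = 0.00164), and its EV libraries differed among themselves. Btg2 was lower at a log2 fold change of -1.58 (adjusted p = 0.000475), Plk2 at -1.67 (adjusted p = 0.00253) and Ephx1, an enzyme that detoxifies epoxides, at -1.59 (adjusted p = 0.00147). The 3 higher genes, named after their values were seen, were Fdxr at 0.76, Zfp365 at 0.71 and Tigar at 0.63. With DESeq2, 4 targets were called higher. In limma on log2(FPKM + 1), on log2(FPKM + 0.1) and without a filter, 0 were. Fewer than 3 were called higher without either C-MYC library. Fdxr passes electrons to mitochondrial enzymes, and Tigar restrains glycolysis.

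Between C-MYC and BCR-ABL1, 2 targets were higher and 10 lower, or 34.3% called against 23.4% of all genes, and their median log2 fold change was -0.35. Limma without a filter called 0 higher and 4 lower, beside 565 and 847 of 17805 genes. The model of the 4 libraries compared called 2 and 14, beside 2271 and 2267 of 12163 genes. Fewer targets, and fewer of all genes, were called without any 1 of these 4 libraries. Zmat3 had 34.08 and 48.03 CPM in EV, 81.58 and 75.08 CPM in BCR-ABL1, and 32.5 and 29.86 CPM in C-MYC. It was highest in BCR-ABL1 without overlap and 2.51-fold lower in C-MYC (log2 fold change -1.33, adjusted p = 0.00299). Ephx1 was lower by a log2 fold change of -1.22 (adjusted p = 0.00873), Sesn1, a sestrin like Sesn2, by -1.01 (adjusted p = 0.0186), and Pmaip1, the cell death gene Noxa, by -0.85 (adjusted p = 0.0184). The 2 higher genes, named after their values were seen, were Gdf15, a secreted stress factor with at most 104 counts in a library, at a log2 fold change of 2.78, and Fdxr at 0.79.

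**Figure D4:**
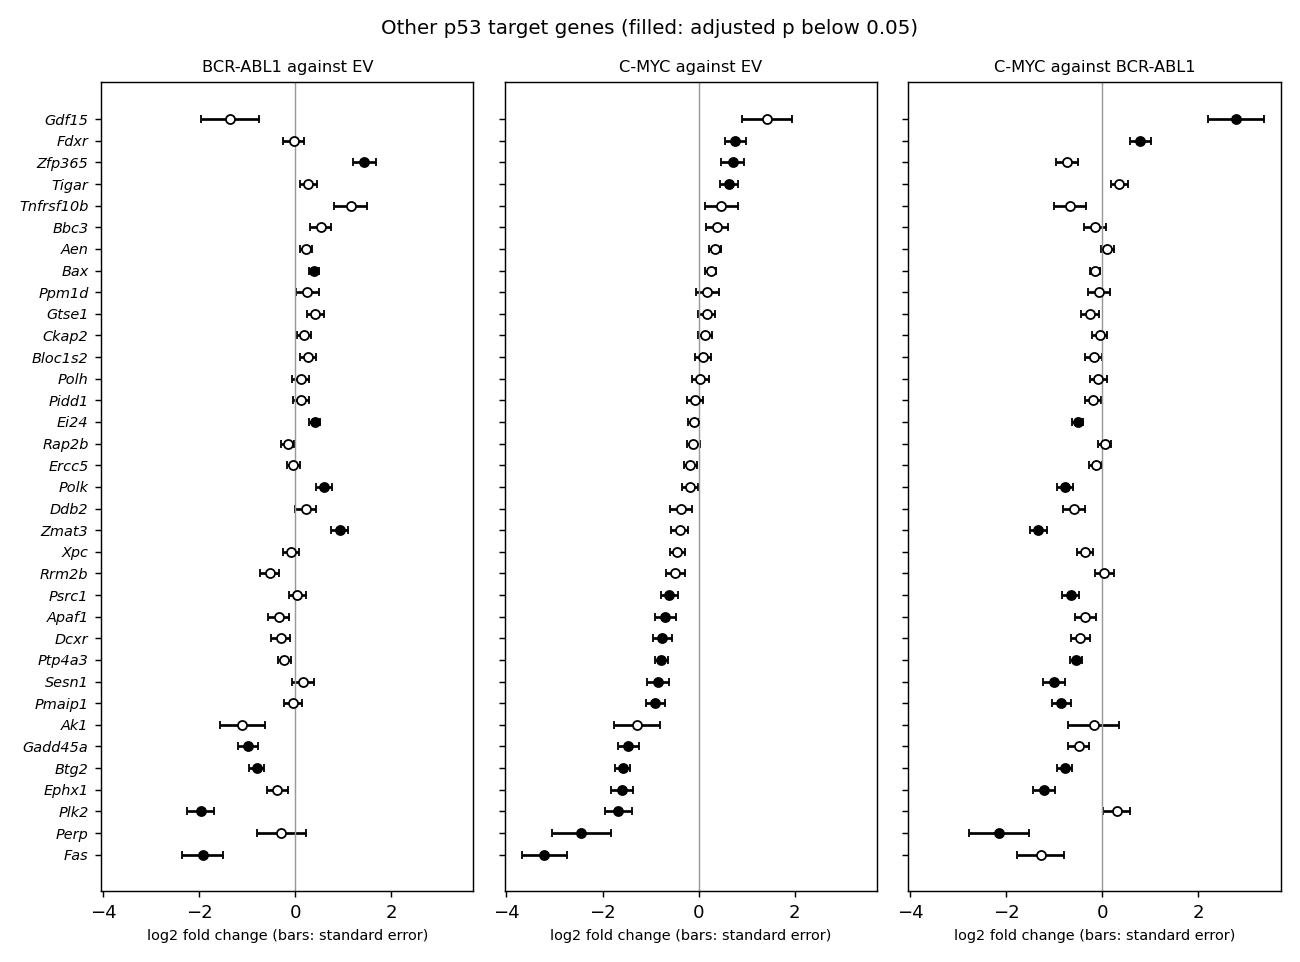
The log2 fold change of the 35 other p53 target genes is plotted for the 3 comparisons, in the order of their change in C-MYC against EV, with standard errors as bars and filled points where the adjusted p is below 0.05. Fas is at -3.21 and Plk2 at -1.67 in C-MYC against EV, and both are also lower in BCR-ABL1 against EV.

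Of 26 regulators of p53 and Mdm2, 3 were higher and 0 lower in BCR-ABL1 against EV, 9 higher and 4 lower in C-MYC against EV, and 4 higher and 2 lower in C-MYC against BCR-ABL1. The shares called, 11.5%, 50% and 23.1%, stood beside 17%, 43.1% and 23.4% of all genes, and none was far above the background. Npm1, the nucleolar protein that holds ARF in the nucleolus, had 1428 and 1693 CPM in EV, 2261 and 2415 CPM in BCR-ABL1, and 4735 and 4615 CPM in C-MYC. It rose in that order without overlap and was 3.00-fold higher in C-MYC than in EV (log2 fold change 1.58, adjusted p = 0.000175). Smyd2, a methyltransferase that represses p53, was 3.04-fold higher in C-MYC than in EV (log2 fold change 1.60, adjusted p = 0.000189) and 2.01-fold higher in BCR-ABL1 (adjusted p = 0.0017). Rpl5, a ribosomal protein that can bind Mdm2, was higher in BCR-ABL1 by a log2 fold change of 0.37 (adjusted p = 0.0392), and Usp10, which removes ubiquitin from p53, was higher in C-MYC by 0.85 (adjusted p = 0.00318). Ppp1r13b, a p53 cofactor for cell death genes, was lower in C-MYC than in EV by a log2 fold change of -1.14 (adjusted p = 0.0169). The ligase Rchy1 and the acetyltransferase Crebbp were lower in C-MYC than in BCR-ABL1, by -0.66 (adjusted p = 0.013) and -0.74 (adjusted p = 0.0323).

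Of 22 regulators of Cdkn2a, 20 passed the filter, and 5%, 45% and 20% of these were called in the 3 comparisons, against 17%, 43.1% and 23.4% of all genes. In BCR-ABL1 against EV, 1 was higher, the Polycomb repressor Bmi1, at a log2 fold change of 0.44 (adjusted p = 0.0329). In C-MYC against EV, 4 were higher and 5 lower, and Bach2, a B cell repressor, was lower by a log2 fold change of -1.31 (adjusted p = 0.00219), Jund, an AP-1 factor, by -0.70 (adjusted p = 0.0145), Cbx7, a Polycomb repressor, by -0.69 (adjusted p = 0.00615) and Dmtf1, an activator of ARF, by -0.63 (adjusted p = 0.00473). In C-MYC against BCR-ABL1, 1 was higher and 3 lower. The higher gene was Kdm6b, a demethylase that removes the Polycomb mark, at a log2 fold change of 1.03 (adjusted p = 0.00526), and Jund, Cbx7 and Dmtf1 were lower by -0.79, -0.57 and -0.44.

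Most paralogs of the members that could be tested were lower in C-MYC. Of 14 paralogs, 10 passed the filter, and Trp63 and Trp73, the relatives of Trp53, were not among them. Sesn1 is 1 of the 10 and was also counted with the other p53 target genes. In C-MYC, 9 of the 10 were lower and 0 higher against EV, and likewise against BCR-ABL1, where 24.5% and 11.9% of all genes were lower. The model of the 4 libraries compared also called 9 lower in each, and limma without a filter called 8 and 6. Fewer paralogs, and fewer of all genes, were called against EV without either C-MYC library. The same held against BCR-ABL1 without any 1 of the 4 libraries compared. The medians of the 10 were -1.0 and -0.94, and 0 were called in BCR-ABL1 against EV. The exception, named after its values were seen, was Cdkn1c, a relative of Cdkn1a, with log2 fold changes of 0.38 against EV (adjusted p = 0.507) and 0.24 against BCR-ABL1 (adjusted p = 0.723). The largest difference was that of Trp53inp2, the relative of Trp53inp1, at 52.77 and 33.77 CPM in EV, 29.86 and 24.35 CPM in BCR-ABL1, and 8.687 and 8.307 CPM in C-MYC. It was 5.09-fold lower in C-MYC than in EV (log2 fold change -2.35, adjusted p = 0.000455) and 3.19-fold lower than in BCR-ABL1 (adjusted p = 0.00351). Phlda1, the relative of Phlda3, was lower than in EV by a log2 fold change of -2.04 (adjusted p = 0.00102), Sesn3 by -1.06 (adjusted p = 0.00493), and Cdkn2d, the kinase inhibitor p19INK4d, by -1.39 (adjusted p = 0.000653).

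Of 14 genes that p53 represses through p21 and the DREAM complex, which serve mitosis and DNA replication, 0 were called in BCR-ABL1 against EV. Of all genes, 17% were called in that comparison. In C-MYC against EV, 3 were higher and 0 lower, the mitotic cyclin gene Ccnb1 at a log2 fold change of 0.65 (adjusted p = 0.00255), Cdc20 at 0.57 (adjusted p = 0.00386) and Cdk1 at 0.38 (adjusted p = 0.0163). These are 21.4% of the list, against 43.1% of all genes called and 18.6% called higher. In C-MYC against BCR-ABL1, Cdc20 was higher by 0.36 (adjusted p = 0.0412) and Ccnb2 lower by -0.40 (adjusted p = 0.0231). These are 14.3% of the list, against 23.4% of all genes called.

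Markers of other cells moved with the conditions in which these genes were compared. Myeloid markers summed to between 1225 and 1426 CPM in EV, 147.7 and 166.5 CPM in BCR-ABL1, and 204.1 and 356.3 CPM in C-MYC, and all 13 were lower in both oncogene conditions than in EV. T and NK cell markers summed to between 214.3 and 291.6 CPM in EV, 119.2 and 132.9 CPM in BCR-ABL1, and 55.77 and 60.63 CPM in C-MYC, with 10 and 11 of 11 lower against EV. In both oncogene conditions most of the sum was 1 gene, Lck, at 116.7 and 93.17 CPM in EV, 124.5 and 109 CPM in BCR-ABL1, and 56.12 and 49.08 CPM in C-MYC. Without Lck, which was singled out after its values were seen, the other 10 summed to 174.9 and 121.1 CPM in EV, 8.343 and 10.22 CPM in BCR-ABL1, and 4.505 and 6.691 CPM in C-MYC. Stromal markers summed to between 188.6 and 298.9 CPM in EV, at most 16.45 CPM in BCR-ABL1 and at most 5.658 CPM in C-MYC, with 6 and 7 of the 7 tested lower. Against EV, 12% of all genes were called lower in BCR-ABL1 and 24.5% in C-MYC. Erythroid markers summed to at most 1.754 CPM in every library, with 6 of 9 at 0 counts. By deposited FPKM, 4 of these 6 were above 0 in some library, up to 2.27 for Hba-a2, so the counts of 0 do not show that they were absent. B cell precursor markers were lower in C-MYC too. Called lower were 11 of 13 against EV and 9 of 13 against BCR-ABL1, beside 24.5% and 11.9% of all genes. The part of these cells in the differences of the members against EV was not tested. Between C-MYC and BCR-ABL1 the sums of myeloid, of T and NK and of stromal markers also differed. Of the 7 stromal markers tested, 4 were called lower in C-MYC and 0 higher, at a median log2 fold change of -1.68. In C-MYC, 3 of 13 myeloid markers were called higher and 1 of 11 T and NK markers, Lck, lower. The shares called, 57.1% of stromal, 23.1% of myeloid and 9.09% of T and NK markers, stood beside 23.4% of all genes called, 11.5% higher and 11.9% lower. The part of these cells in the differences of the members between the oncogenes was not tested either.

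**Figure D5:**
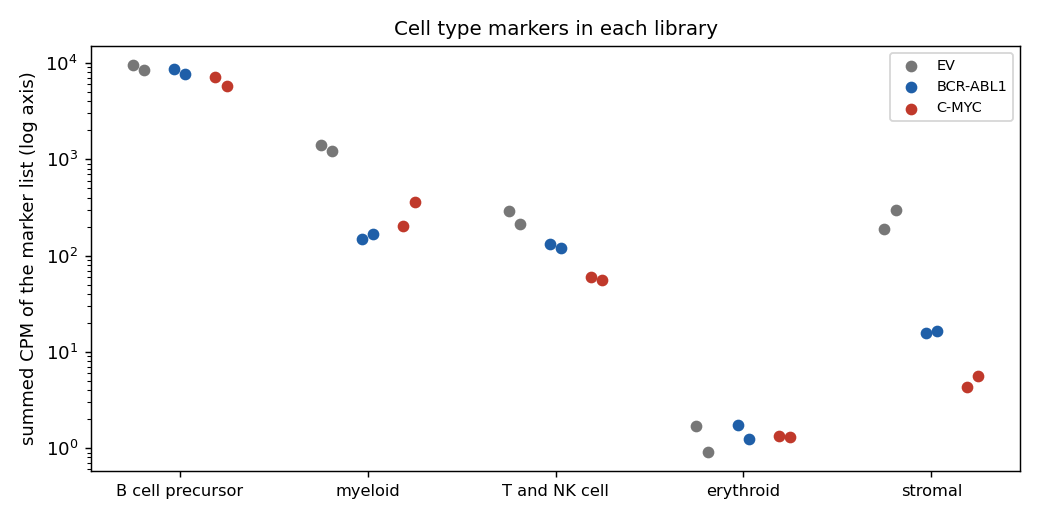
The summed CPM of 5 marker lists is plotted on a log axis for each library, by condition. Myeloid, T and NK and stromal markers are highest in the 2 EV libraries, and B cell precursor markers lie between 5735 and 9493 CPM in all 6.

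The genes most like Trp53, Cdkn2a and Cdkn1a were looked for by Pearson's r of log2 CPM over the 6 libraries, among the 10622 other genes whose mean was 50 counts or more. These values are descriptions over 6 points that share conditions and libraries. Among the genes most like Trp53 were Rpl21, at r = 0.997, and Strada, at 0.993, and 85 genes exceeded 0.95. Among those most like Cdkn2a were Coro1a, at r = 0.999, and Tmed3, at 0.997, and 206 genes exceeded 0.95. Cdkn1a was most like Anapc16, at r = 0.992, Kdm5d, at 0.990, and 1700097N02Rik, at 0.981, and 34 genes exceeded 0.95.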

How the data were processed

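Poly(A) RNA reads of 6 libraries (EV, BCR-ABL1 and C-MYC, 2 each) were used, and the 15 ChIP-seq samples of the series were not used here. The authors aligned reads to GRCm38/mm10 with STAR 2.5.0, per the submitters' processing notes and the paper's methods, and deposited whole-number counts per gene symbol without normalization. The counting program and its use of strand are not given in the sources used here. The authors made the deposited FPKM values with StringTie 1.3.0, scaled for length and depth.

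Counts were fitted with edgeR 4.0.16 in R 4.3.3, in a single model of the 6 libraries that had no covariate, after filterByExpr (12786 of 24421 genes kept) and TMM scaling. The quasi-likelihood test was called at a Benjamini-Hochberg adjusted p below 0.05. Standard errors were derived from each log2 fold change and its quasi-likelihood F value. The libraries held from 20687092 to 24095955 counts. The common biological coefficient of variation was 0.151, and the spread between replicates limits precision more than depth does. Replicates differed by more than counting noise (chi-square per degree of freedom 45.6, 10.7 and 20.3 in EV, BCR-ABL1 and C-MYC). Trp53bp1, the disrupted gene, had between 342 and 723 counts per library, which as counts per gene do not show its loss.

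Gene positions (1-based) and exon lengths are from GENCODE on GRCm38, and promoters are from RefSeq on GRCm38.p6. On simulated counts with 200 genes changed in C-MYC by a log2 fold change of 1, the test recovered 86% against EV and 88.5% against BCR-ABL1, with 3 and 9 false calls among 12571 genes. The simulation gave every gene and condition the same spread and changed no gene of the lowest levels. In the data the spread differed between conditions and many more genes were called. These shares are therefore a check of the code and not rates for these data.

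The 10 members and the gene lists were chosen with earlier results of these data known. All members are named. From each list and comparison, up to 4 called genes are named, those with the largest change among genes whose mean was 50 counts or more and whose libraries did not overlap. Genes named beyond that rule are said to be so. The 3 most similar genes were taken for Trp53, Cdkn2a and Cdkn1a, of which some are not reported here. Alternatives were DESeq2's size factors, no filter, DESeq2 1.42.0, limma 3.58.1 on log2(FPKM + 1) and log2(FPKM + 0.1) for genes at an FPKM of at least 1 in 2 libraries, limma without that filter, only the 4 libraries compared, a replicate block and leaving out each library. Figures and tables were made with Python 3.11.15, pandas 2.3.3 and matplotlib 3.10.9.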

Additional observations from a re-analysis of the deposited data

How the results depend on the processing

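Calls of single members near the threshold depended on the model, while those of Trp53inp1 and Cdkn2a in both comparisons with C-MYC did not. Between BCR-ABL1 and EV, 2 members were called with DESeq2's size factors, without the filter and with DESeq2, 0 with limma on log2(FPKM + 1) and log2(FPKM + 0.1) and in the model of 4 libraries, and between 0 and 2 when a library was left out. Over all genes, 2180 were called in this comparison, 1257 and 1251 with limma at the 2 pseudocounts, 1425 with limma without a filter, and between 665 and 2729 when a library was left out. Limma without a filter called 2 members in C-MYC against EV, and 2 members and 1412 of all genes in C-MYC against BCR-ABL1, where 4538 genes were called in the model of 4 libraries. When a library was left out, between 3329 and 6077 genes were called in C-MYC against EV, and between 618 and 4519 genes and 2 and 6 members in C-MYC against BCR-ABL1. An arm left with 1 library was taken to vary like the others. In C-MYC against BCR-ABL1, 5 members were called lower with DESeq2 and without the filter, and 6 in the model of 4 libraries, where the main model called 4.

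The directions that reversed belonged to differences that had not passed the test. On the 3 FPKM scales, in the order given, Mdm4 was at 0.91, 0.93 and 0.91 in BCR-ABL1 against EV and at 0.82, 0.84 and 0.82 in C-MYC against EV, and Cdkn1a was at -0.052, -0.053 and -0.052 in BCR-ABL1 against EV. When a library was left out, log2 fold changes ran from -0.39 to 0.11 for Mdm4, -0.15 to 0.21 for Cdkn1a and -0.24 to 0.16 for Sesn2 in BCR-ABL1 against EV, from -0.43 to 0.072 for Mdm4 and -0.31 to 0.0065 for Ccng1 in C-MYC against EV, and from -0.15 to 0.060 for Mdm4 and -0.84 to 0.018 for Sesn2 in C-MYC against BCR-ABL1. Without EV replicate 1, Mdm4 was called lower in C-MYC than in EV (-0.43, adjusted p = 0.0248 in edgeR's quasi-likelihood test). The cause was not tested.

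The replicate numbers are shared by the conditions, and same-numbered libraries deviated together with correlations of 0.273, 0.236 and 0.204, but the labels do not say what a number marks and there are 2 of them. With the replicate block, 3, 5 and 6 members and 3224, 6631 and 4278 genes were called in the 3 comparisons. The members gained under the block were Ccng1 (adjusted p = 0.0269) and Trp53inp1 (adjusted p = 0.0392) in BCR-ABL1 against EV, Cdkn1a in C-MYC against EV (adjusted p = 0.0152), and Cdkn1a (adjusted p = 0.0202) and Eda2r (adjusted p = 0.0367) in C-MYC against BCR-ABL1, and none was lost. Where FPKM replaced CPM per kilobase, 6 of the members lay above the median gene in place of 8.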
